A study of Arabidopsis thaliana with 31 samples.

Results

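The 40S subunit is the part of the cytosolic ribosome that binds the mRNA and pairs its codons with tRNAs. Each of its proteins is encoded in Arabidopsis by a small family of nuclear paralogs whose proteins are similar, so the dose of 1 protein is the sum over several transcripts. The mRNA of each paralog ends in a 3′ untranslated region (3′ UTR), the stretch between the stop codon and the site where the transcript is cleaved and the poly(A) tail added. Plant genes usually cleave at many neighbouring bases, and the AAUAAA signal known from animals is only loosely kept in plants.

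The genes described here are 57 genes of the small subunit, families SA to S24, chosen by name, out of 19829 genes named in the alignments. They fall into 24 protein families, of which 13 had 2 listed genes, 10 had 3 and 1 had a single listed gene. All measurements come from 1 poly(A)-seq library of the wild type Col (2-week seedlings, whole plants, grown on plates), which is 1 of the 31 samples of the series, and the others were not used here. In this assay RNA was cut with RNase T1, fragments with a poly(A) tail were purified, and the base before the tail was read as the 3′ end of the mRNA. No treatment or mutant was compared, there were no replicates, and no test was made. Intervals are 95% Clopper-Pearson intervals of shares of reads and cover counting error only. They take each read as an independent count, and are too narrow where reads are copies of 1 molecule. One read marks 1 transcript end, so reads were not divided by gene length.

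The 57 genes held 50066 of 2786281 reads, which is 1.80% (1.78% to 1.81%). A read was found for 56 of them and at least 20 reads for 54. The median over the 57 genes was 644 reads, with 321 and 1037 reads as quartiles, beside a median of 20 reads over the 18414 genes with a sense read. At least 300 reads were counted for 43 of the 57 genes (75.4%), where 6.86% of genes with a read reached that number. Among 36 other 40S genes, 14 reached it. A position already occupied by another read was repeated by 76.7% of the reads of the 57 genes and by 76.8% of all placed reads, and whether repeats were copies of 1 molecule was not tested.

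The 3′ ends that carry the results are shown first, each as the 30 nt up to and including the most used 3′ end. Sequences are from RefSeq (TAIR10.1), and capitals mark AATAAA or a 1-base variant of it where it lay 10 to 35 nt upstream. The first set holds the gene with the most reads in each of the 6 families with the most reads. Of these 6 genes only RPS15 had a variant of the signal, AATCAA, and none had AATAAA itself.
S18 RPS18C (AT4G09800), chr4:6175059-6175088, plus strand: gctttttgtgatcacattcctctgtttttc
S19 AT3G02080, chr3:364006-364035, minus strand: ttgcgctcataatgttcaaaaatttatctt
S13 RPS13A (AT4G00100), chr4:38280-38309, plus strand: tgaatttactattgaatatgcttttgcatc
S15 RPS15 (AT1G04270), chr1:1141672-1141701, minus strand: tcttaAATCAAatcattttggatttttgtt
S9 AT5G15200, chr5:4934961-4934990, minus strand: gttatcatctatttctcacaattatctttt
S2 AT2G41840, chr2:17459804-17459833, minus strand: gttaatccagtggtgccaattttaattttc

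The other set holds paralogs of the 4 families whose 3′ UTRs differed most in used length (S11, S14, S17 and the second gene of S9), so that ends of paralogs can be compared. Among those shown AT2G36160 and AT3G10610 had a variant of the signal, and none had AATAAA.
S11 EMB1080 (AT3G48930), chr3:18140888-18140917, minus strand: tgttttactctgctgaatctttttcatccc
S11 AT4G30800, chr4:15002642-15002671, plus strand: tttatctttgtctaatcgatatttcttgct
S14 AT3G11510, chr3:3623464-3623493, minus strand: tcgagatatttaatgctatggttgctcatc
S14 AT3G52580, chr3:19504853-19504882, plus strand: attcaaaaattggtagtcattttatctcac
S14 AT2G36160, chr2:15171264-15171293, plus strand: actttttgttaatttAATCAAcatttttct
S9 AT5G39850, chr5:15951388-15951417, plus strand: gcttcttataagatactagtagttgatatt
S17 AT2G05220, chr2:1894603-1894632, minus strand: gtattaatggtttttaagttatgtggaacc
S17 AT5G04800, chr5:1389788-1389817, plus strand: tttcgtattaatgggttttgagttatgtgg
S17 AT3G10610, chr3:3320120-3320149, plus strand: ggtAAGAAAatgatatcaaaaacgttttct

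Paralogs of a family were read at very unequal levels in some families and at like levels in others. In 5 of the 23 families with 2 or 3 listed genes, a single paralog held at least 90% of the reads of the listed genes, and in 9 at least 75%. With unlisted copies included, the share was 73.7% in S2 and 62.4% in S17, so neither would then reach 75%. In 10 families the paralog with the most reads held under 60%. The median share of the leading paralog was 61.2% over the 23 families. The sum over listed genes ranged between 643 reads for S23 and 5955 reads for S18, a 9.26-fold range, with a median of 1860 reads per family.

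**Figure D1:**
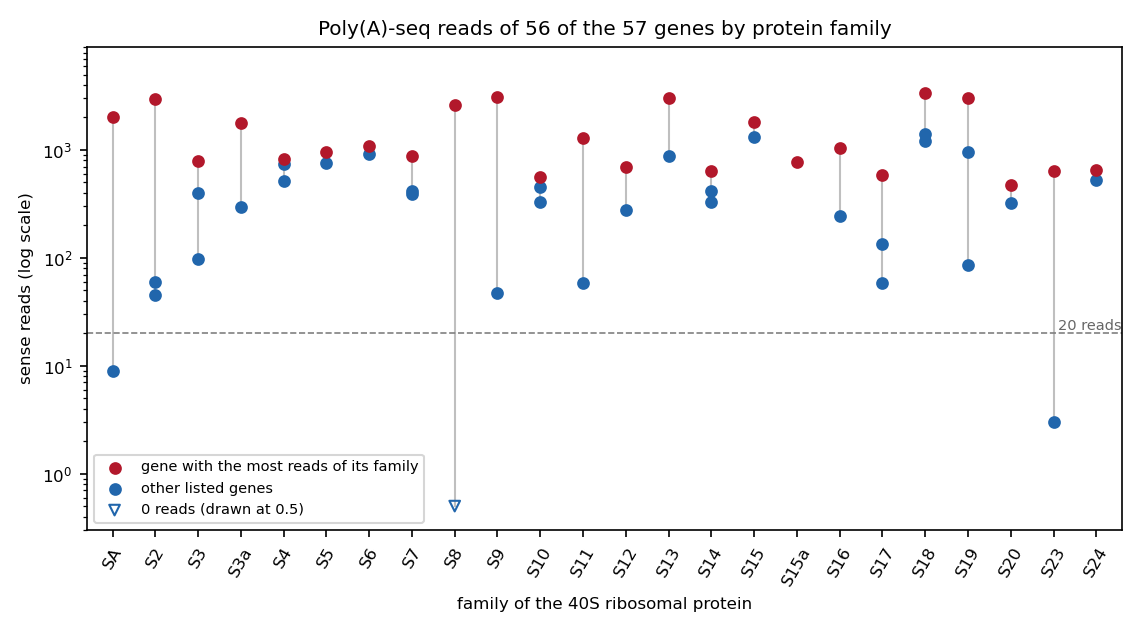
Sense reads of 56 of the 57 genes (log scale) by family of the 40S protein, with 1 point per gene in 1 library, the gene with the most reads of each family in red and the others in blue; a gene with 0 reads is drawn at 0.5. The families SA, S2, S8, S9 and S23 each had 1 gene with at least 90% of the reads of listed genes. In S4, S5, S6, S10, S14, S15, S20 and S24 the listed genes were within 2-fold of each other.

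The body and platform of the subunit hold the families with a single dominant transcript. Protein SA, at the back of the subunit in yeast and human ribosomes, had 2042 reads on P40 (AT1G72370) and 9 reads on RPSAb (AT3G04770), so P40 held 99.6% (99.2% to 99.8%). Family S8, a body protein, had 2625 reads on AT5G20290 and 0 reads on AT5G59240, which, taken as 3 counts of the total, allows a share of up to 0.114% for AT5G59240. In S23, whose bacterial counterpart lies in the decoding centre, AT5G02960 had 640 reads and AT3G09680 had 3 reads, 99.5% (98.6% to 99.9%) being on AT5G02960. In S9, which lines the mRNA entry in yeast, AT5G15200 had 3065 reads and AT5G39850 had 47 reads, a 65.2-fold difference. Every read of P40, RPSAb, AT5G20290, AT5G02960, AT3G09680, AT5G15200 and AT5G39850 had a sequence found once in the genome. Here and below, this sequence is that of the genome under the aligned read. Whether a read could also fit a paralog with mismatches was not tested.

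S2, also at the mRNA entry, had 2946 reads on AT2G41840, 60 reads on XW6 (AT1G58380) and 45 reads on AT3G57490. AT2G41840 held 96.6% (95.8% to 97.2%) of these. The family has 3 further copies within chr1:21769674-21843819 (AT1G58684, AT1G58983 and AT1G59359), whose 944 reads all had sequences found more than once in the genome. With them, the share of AT2G41840 was 73.7% of 3995 reads, so the lead was smaller over the whole family. Their split among the 3 copies cannot be read from these alignments.

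Among the other body and platform families, S3a, S13 and S11 were uneven, and S14 and S7 were less so. AT4G34670 of S3a, a platform protein, had 1766 reads and AT3G04840 had 299 reads, a 5.91-fold difference. S13, a platform protein that bridges to the large subunit, had 3048 reads on RPS13A (AT4G00100) and 880 reads on AT3G60770, a share of 77.6% (76.3% to 78.9%) for RPS13A. In S11, EMB1080 (AT3G48930), which takes its name from the embryo defect of its mutant, had 1288 reads and AT4G30800 had 58 reads, a 22.2-fold difference. S14 had 644 reads on AT3G11510, 419 reads on AT3G52580 and 330 reads on AT2G36160. S7 had 883 reads on AT3G02560, 413 reads on AT5G16130 and 390 reads on AT1G48830. The gene with the most reads exceeded the one with the fewest by 1.95-fold in S14 and 2.26-fold in S7.

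S4, S6 and S24 were the families of the body with the most even use. S4 had 817 reads on AT2G17360, 747 reads on AT5G58420 and 515 reads on AT5G07090. S6, the protein phosphorylated downstream of the TOR kinase, had 1095 reads on EMB3010 (AT5G10360) and 910 reads on RPS6 (AT4G31700), a 1.20-fold difference. S24 had 648 reads on AT5G28060 and 528 reads on AT3G04920, a 1.23-fold difference. S15a has a single gene in the set, RPS15A (AT1G07770), with 769 reads, and other S15a copies held 962 reads.

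The head of the subunit, which turns during translocation, showed the highest level of all 57 genes. RPS18C (AT4G09800) had 3345 reads and was number 91 among all genes by reads. The other S18 genes had 1407 reads on PFL (AT1G22780), named for the pointed first leaf of its mutant, and 1203 reads on AT1G34030. S18 and S15 were the families with 2 or 3 listed genes in which each of them had at least 1000 reads. RPS18C held 56.2% (54.9% to 57.4%). S15, whose tail reaches towards the decoding site, had 1821 reads on RPS15 (AT1G04270) and 1323 reads on AT5G09510, and RPS15 held 57.9% (56.2% to 59.7%). S19 was uneven, with 3040 reads on AT3G02080, 958 reads on AT5G61170 and 86 reads on AT5G15520, a 35.3-fold range.

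S3, which lines the mRNA entry from the head, had 784 reads on AT3G53870, 400 reads on AT2G31610 and 97 reads on AT5G35530. S5, near the mRNA exit, had 962 reads on RPS5A (AT3G11940) and 752 reads on RPS5B (AT2G37270), a 1.28-fold difference. RPS5A, which is well known for its use as a promoter in dividing cells, held 56.1% (53.7% to 58.5%). S10 had 556 reads on AT5G52650, 452 reads on AT4G25740 and 332 reads on RPS10B (AT5G41520). S12, in the beak of the head, had 702 reads on AT1G15930 and 277 reads on AT2G32060. These 4 families ranged between a 1.28-fold difference in S5 and an 8.08-fold one in S3.

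S16, whose tail touches the tRNA in the P site, had 1037 reads on AT5G18380 and 242 reads on AT2G09990. The coding sequences of this pair were the most alike of all paralogs, at 98.2% identity, and 905 of the 1037 reads of AT5G18380 had a sequence found once in the genome, the lowest share among the genes with a read (87.3%). S17 had 582 reads on AT2G05220, 135 reads on AT5G04800 and 58 reads on AT3G10610, while an unlisted S17 copy, AT2G04390, had 157 reads. S20 had 476 reads on AT5G62300 and 321 reads on AT3G47370, with 198 reads on the unlisted AT3G45030. In S16, S17 and S20 the shares over listed genes were 81.1% (78.8% to 83.2%), 75.1% (71.9% to 78.1%) and 59.7% (56.2% to 63.2%) for the leading gene, and over all copies 79.95%, 62.4% and 47.8%.

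The filter on mapping quality and the counting of repeats bear on these shares. The deposited mapping quality went with the number of isoforms named for a gene: among the 33 genes with 1 named transcript 99.2% of reads had a mapping quality of at least 10, and among the 23 genes with 2 or more it was 1.18%, although 99.1% of the reads of these 23 genes had a sequence found once in the genome. With that minimum the leading gene of 7 families changed (S4, S6, S7, S12, S16, S17 and S20), and with identical reads counted once that of 5 families (S4, S6, S15, S20 and S24). Counting identical reads once also narrowed some printed folds between the gene with the most and the one with the fewest reads. These were then 39.6-fold in S9, 14.8-fold in S11, 11.04-fold in S19, 4.41-fold in S3 and 1.31-fold in S13. The fold widened from 1.95 to 2.62 in S14, from 2.78 to 3.68 in S18 and from 1.59 to 1.71 in S4. The share of the leading gene fell to 56.6% in S13, 60.3% in S17 and 60.7% in S19. It rose to 52.9% in S14 and 60.5% in S18. For S4, S6, S15, S20 and S24 the order of paralogs is therefore not settled by these data. Nor is the order below the leading gene in S14 and S18. With identical reads counted once, S14 had 99 reads on AT3G52580 and 132 on AT2G36160. S18 then had 199 reads on PFL and 279 on AT1G34030. In S5 the lead of RPS5A was then small, at 241 against 215 reads, or 52.9% (48.2% to 57.5%). The order in S5 is thus not settled either.

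The used 3′ UTR, taken as the median distance between the stop codon and the 3′ end of a gene's reads, was of similar length in most of the 54 genes with at least 20 reads. The median over these genes was 165.5 nt, with quartiles of 154 and 182.5 nt, beside 181 nt with quartiles of 140 and 234 nt over the 9278 coding genes with at least 20 reads, which include the 54. A used length of 150 to 200 nt was found for 39 genes, a shorter one for 9 and a longer one for 6. At most 200 nt was reached by 48 of the 54 genes (88.9%), against 60.6% of all genes. With at least 200 reads a gene, the medians were 163.5 nt over 46 of the 40S genes and 178 nt over 1805 genes. The shortest used 3′ UTR was that of AT4G25740 (S10) at 114 nt and the longest that of AT4G30800 (S11) at 248 nt.

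**Figure D2:**
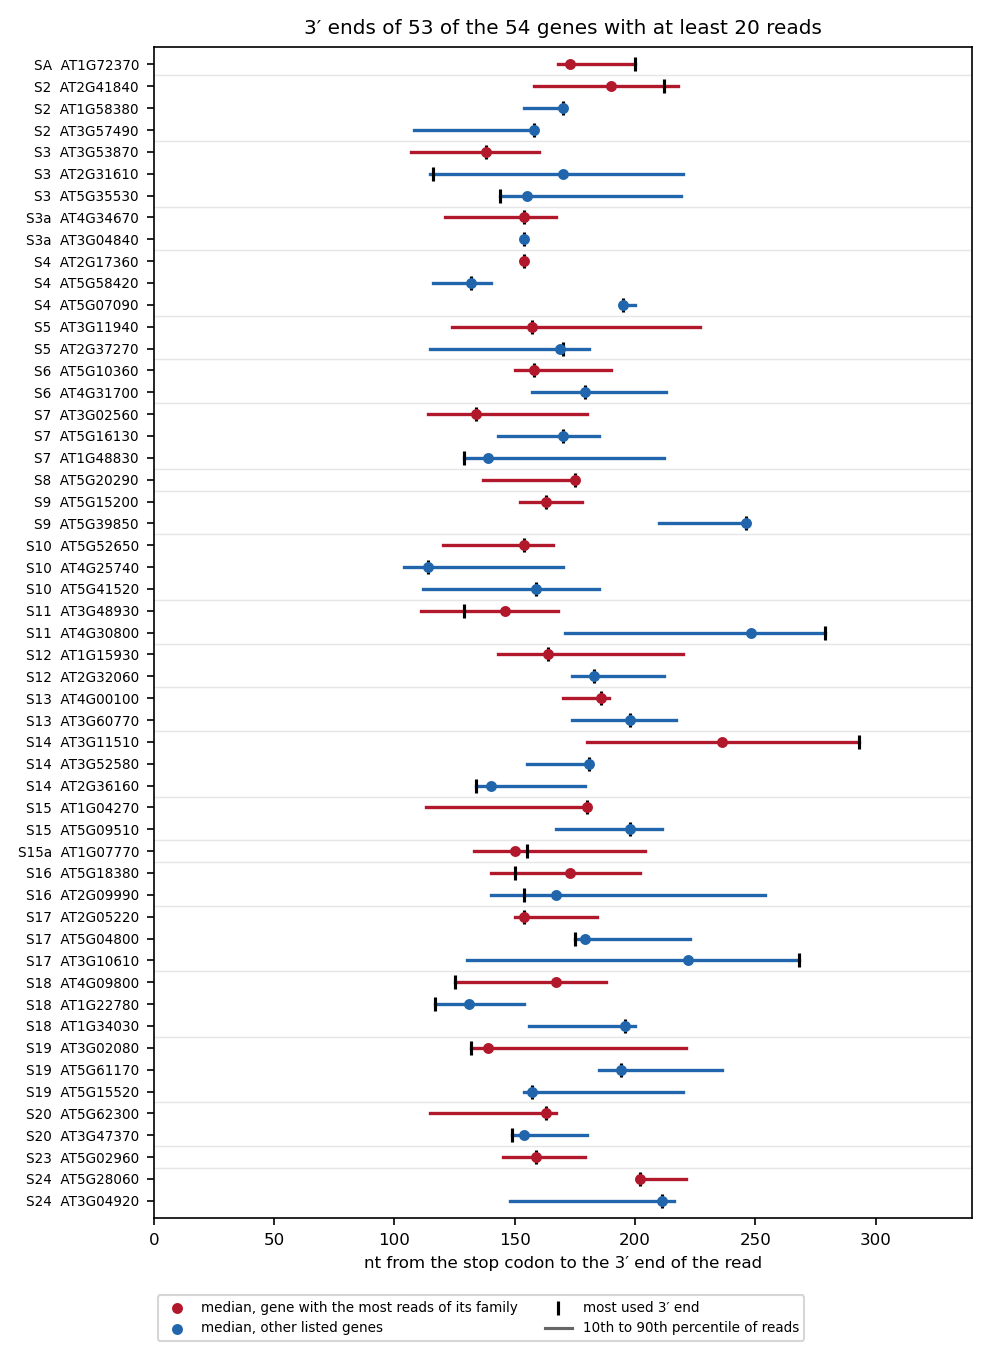
Distance in nt between the stop codon and the 3′ ends of reads for 53 of the 54 genes with at least 20 reads, grouped by family with the gene with the most reads on top and in red. Dots are medians, lines run over the 10th to 90th percentile of reads and black ticks mark the most used 3′ end; medians lie between 114 and 248 nt.

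**Figure D3:**
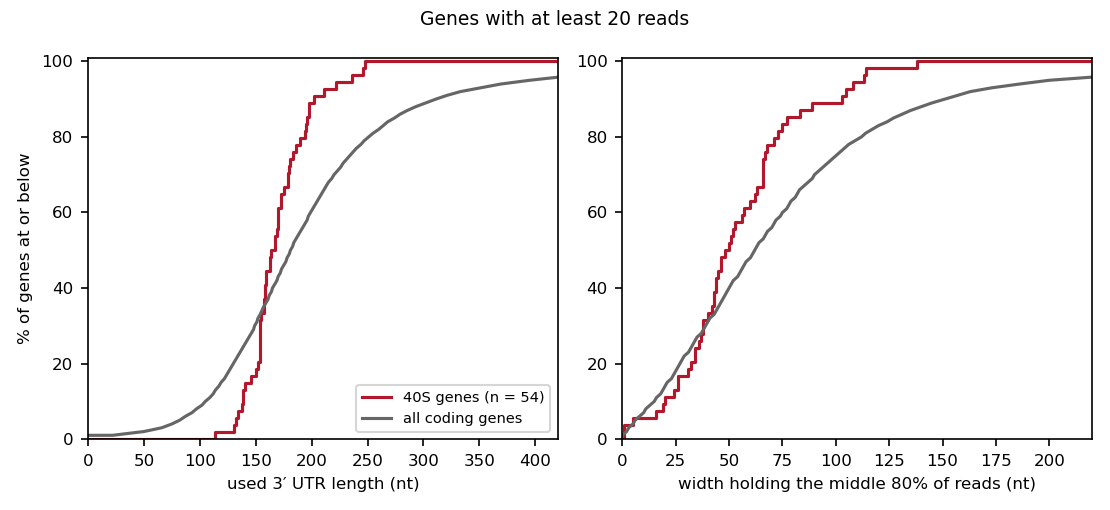
Cumulative share of genes (percent) by used 3′ UTR length in nt (left) and by the width in nt that holds the middle 80% of reads (right), for the 54 genes in red and all coding genes with at least 20 reads in grey. The red curves are steeper, with medians of 165.5 and 49 nt, against 181 and 62 nt over all genes.

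Annotated 3′ UTRs of the same genes were longer than the used ones. The annotated length had a median of 297 nt over the 54 genes and 292 nt over all genes. The most used 3′ end lay a median of 114 nt inside the annotated end in the 54 genes and 94 nt inside it over all genes. It lay at least 100 nt inside in 31 of 54 genes (57.4%), against 47.2% of all genes. Of the 54 genes, AT4G30800 alone had its most used end at the annotated end itself, at 279 nt. Because reads were aligned to annotated transcripts, an end beyond every annotated isoform could not be seen.

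Within families, paralogs kept like lengths in some and unlike lengths in others. Of 20 families with 2 or more genes of at least 20 reads, the range of used lengths was under 20 nt in 8 and at least 60 nt in 6 (S11, S14, S9, S17, S18 and S4). In S3a both paralogs had a used length of 154 nt. In S16 the lengths were 173 nt for AT5G18380 and 167 nt for AT2G09990. In S24 they were 202 nt for AT5G28060 and 211 nt for AT3G04920, both among the 6 longest of the set. Over the 40 pairs the median absolute difference was 30 nt, and the gene with more reads had the shorter used 3′ UTR in 25 pairs, the longer in 14 and an equal one in 1. Pairs of a family share genes, so these are counts only.

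S11 had the widest range. EMB1080 had a used length of 146 nt on 1288 reads and AT4G30800 had 248 nt on 58 reads, a difference of 102 nt. Their most used ends were at 129 and 279 nt, and the middle 80% of reads ran over 111 to 168 nt and 171 to 279 nt. The end at 279 nt is the annotated end and rests on 11 reads from 2 different read starts. With identical reads counted once it was not the most used end of AT4G30800. In S9 the lengths were 163 nt for AT5G15200 and 246 nt for AT5G39850, and the middle 80% of reads ran over 152 to 178 nt and 210 to 246 nt, which do not overlap. In S14 they were 236 nt for AT3G11510, 181 nt for AT3G52580 and 140 nt for AT2G36160. Here the gene with the most reads had the longest 3′ UTR, unlike in S9 and S11. In S17 the lengths were 154 nt for AT2G05220, 179 nt for AT5G04800 and 222 nt for AT3G10610.

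**Figure D4:**
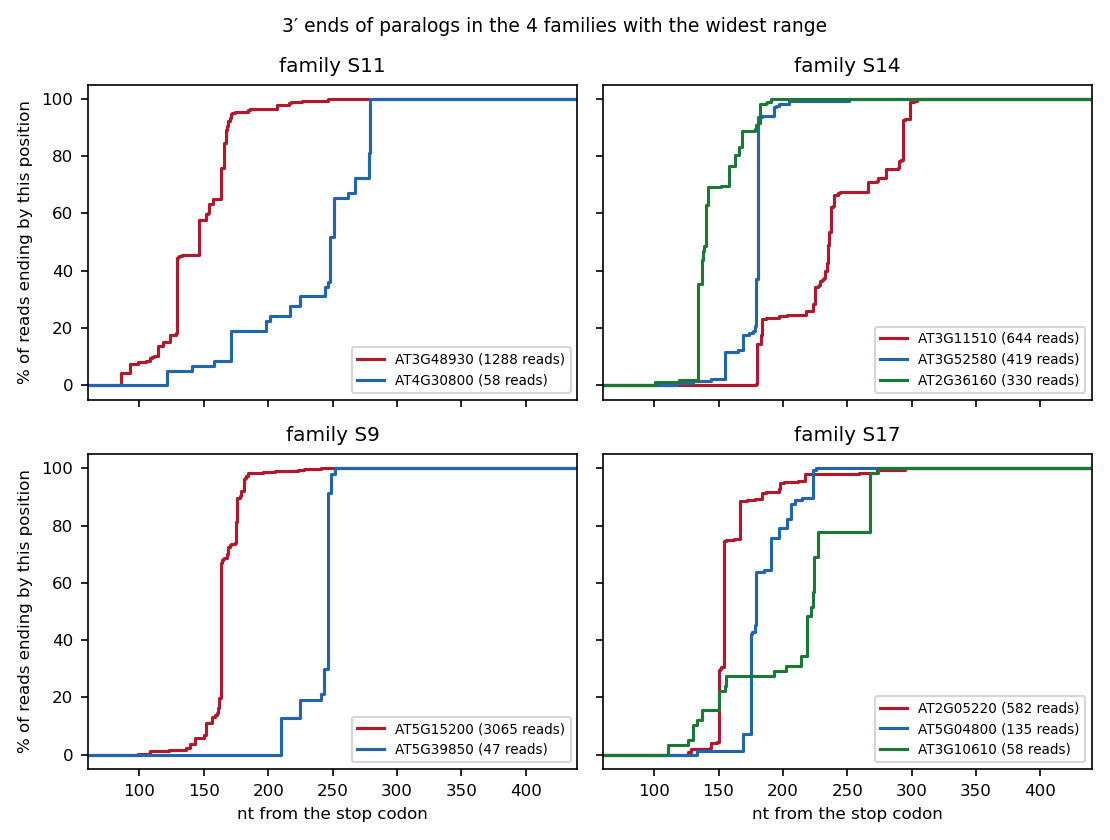
Cumulative share of reads (percent) by distance in nt of the 3′ end from the stop codon, for paralogs of S11, S14, S9 and S17, with the gene with the most reads of each family in red. The curves of AT4G30800, AT5G39850 and AT3G11510 lie to the right of their paralogs' curves, with medians of 248, 246 and 236 nt, and that of AT3G10610 crosses them, with a median of 222 nt.

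S18 and S4 followed with ranges of 65 and 63 nt. In S18 the used length was 167 nt for RPS18C, 131 nt for PFL and 196 nt for AT1G34030. In S4 it was 154 nt for AT2G17360, 132 nt for AT5G58420 and 195 nt for AT5G07090. The fewest reads among these 6 genes were the 515 of AT5G07090. S19 ranged over 55 nt, with 139 nt for AT3G02080, 194 nt for AT5G61170 and 157 nt for AT5G15520. S10 ranged over 45 nt, with 154 nt for AT5G52650, 114 nt for AT4G25740 and 159 nt for RPS10B.

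The remaining families ranged over 36 nt or less. In S7 the used length was 134 nt for AT3G02560, 170 nt for AT5G16130 and 139 nt for AT1G48830. In S3 it was 138 nt for AT3G53870, 170 nt for AT2G31610 and 155 nt for AT5G35530, and in S2 190 nt for AT2G41840, 170 nt for XW6 and 158 nt for AT3G57490. EMB3010 and RPS6 had 158 and 179 nt in S6. AT1G15930 and AT2G32060 had 164 and 183 nt in S12, and RPS15 and AT5G09510 had 180 and 198 nt in S15. In S13 the lengths were 186 nt for RPS13A and 198 nt for AT3G60770, in S5 157 nt for RPS5A and 169 nt for RPS5B, and in S20 163 nt for AT5G62300 and 154 nt for AT3G47370. With 1 gene each of at least 20 reads, SA had 173 nt (P40), S8 175 nt (AT5G20290), S15a 150 nt (RPS15A) and S23 159 nt (AT5G02960).

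Used 3′ UTRs of paralogs were less alike than their coding sequences. Over 43 paralog pairs, identity in a global alignment (matches over the shorter length) had a median of 85.1% in the coding sequence, with a range of 58.5% to 98.2%. The lowest value was that of AT4G25740 and RPS10B (S10), on isoforms with coding sequences of 450 and 405 nt. The third S10 gene had 540 nt, and other isoforms of the pair were not tested. Over the 42 pairs with a 3′ end, the stretch between the stop codon and the most used end had a median of 62.6%, with a range of 51.9% to 85.1%. As a yardstick, 253 pairs of leading genes of different families had a median of 60% in the same alignment of used 3′ UTRs, with a range of 51.3% to 74.4%. The S17 pair AT2G05220 and AT5G04800 was the most alike, at 85.1%. The S3a pair, with equal used lengths, was the least alike, at 51.9%. Matches were divided by the shorter length, so pairs of unequal length can reach higher values in this measure.

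Spread of the 3′ ends varied widely within the set. The width between the 10th and 90th percentile of reads had a median of 49 nt over the 54 genes and 62 nt over all genes. The order-statistic interval of the former was 43 to 62 nt. A width of at most 50 nt was found in 28 of 54 genes (51.9%), against 40.2% of all genes. With at least 200 reads a gene, the median widths were 46 nt (40 to 62 nt) over the 40S genes and 53 nt over all genes. A narrower spread of the 40S genes is thus not clear at that depth. The share of reads at the most used base had a median of 32.5% over the 54 genes and 34.4% over all genes. With 3′ ends within 24 nt joined into a site, the main site held at least 90% of reads in 49 of 54 genes (90.7%), where 59.8% of all genes did. That share moves with depth: with at least 200 reads the medians were 100% over the 40S genes and 99.5% over all genes.

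The sharpest ends were those of 5 genes with at least 70% of their reads at 1 base. AT2G17360 (S4) had 658 of 817 reads at 154 nt, which is 80.5% (77.7% to 83.2%). AT3G04840 (S3a) had 243 of 299 reads at 154 nt, which is 81.3% (76.4% to 85.5%). AT5G07090 (S4) had 393 of 515 reads at 195 nt, or 76.3%, and AT5G20290 (S8) had 1858 of 2625 reads at 175 nt, or 70.8%. These ends were reached from 49, 53, 43 and 77 different read starts, so each was seen on many different fragments. AT3G57490 (S2) had 71.1% at 1 base, but on 32 of only 45 reads. The third S4 gene, AT5G58420, had a lower share at its most used base than both other S4 genes. In S3a the paralogs differed in sharpness, since AT4G34670, the one with the same most used position, had 39.6% of its reads there and a width of 46 nt, against 1 nt in AT3G04840.

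RPS18C, the gene with the most reads, had the lowest share at its most used base. That base held 406 of 3345 reads, or 12.1% (11.05% to 13.3%), its reads ended at 88 different bases, and its width was 63 nt. By width the most scattered were AT3G10610 (138 nt), AT2G09990 (114 nt), AT3G11510 (113 nt) and AT4G30800 (108 nt). AT3G11510 (S14) had 14.0% at its most used base, AT3G60770 (S13) had 14.7% with a width of 43 nt, and AT2G31610 (S3) had 16.5% with one of 105 nt. AT3G60770 thus spread its reads over many bases of a narrow window, while AT3G11510 and AT2G31610 used a wide one. RPS5A had a width of 103 nt, against 66 nt in RPS5B. With identical reads counted once, the most used end stayed first in 49 of the 54 genes, and RPS18C was among the 5 in which it did not, along with P40, AT4G30800, AT3G60770 and AT2G09990.

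A second site with at least 10% of reads was found in 5 of the 54 genes (9.26%), where 36.7% of all genes had one. All 5 were the listed paralogs with the fewest reads of their family. AT2G09990 (S16) had 141 of 242 reads at 109 to 172 nt, or 58.3% (51.8% to 64.5%), and 89 reads at 210 to 272 nt, or 36.8% (30.7% to 43.2%). Its paralog AT5G18380 had 99.8% of its 1037 reads in 1 joined site. That site ran over 100 to 316 nt and so covered both of these stretches. AT5G15520 (S19) had 59 of 86 reads at 140 to 161 nt and 27 reads at 189 to 221 nt. AT3G10610 (S17) was split over 3 sites, with 29 of 58 reads at 193 to 227 nt, 16 reads at 111 to 156 nt and 13 reads at 268 to 274 nt. AT4G30800 (S11) had 47 of 58 reads at 198 to 279 nt and 11 reads at 121 to 171 nt, and AT3G57490 (S2) had 35 of 45 reads at 158 to 199 nt and 8 reads at 103 to 133 nt. Reads few in number leave gaps between 3′ ends more easily, and how far this set the count was not tested.

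**Figure D5:**
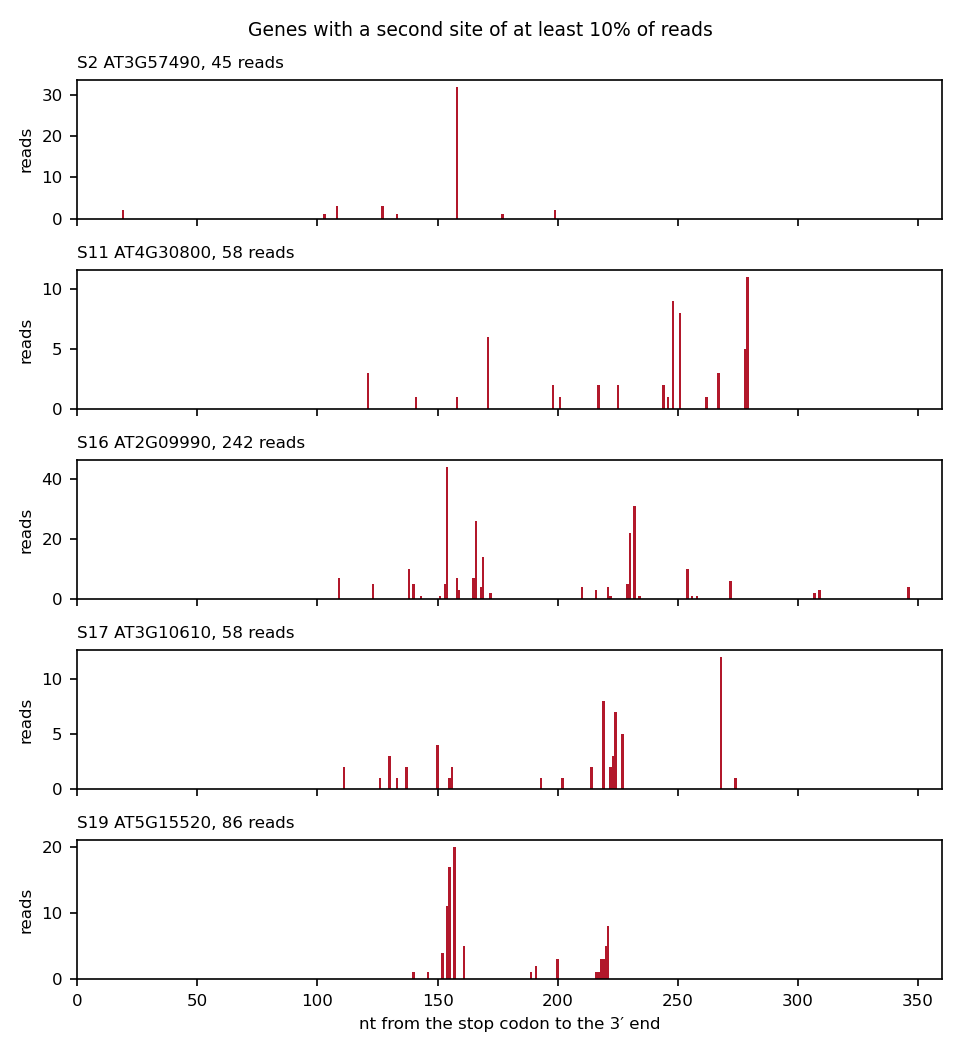
Reads by distance in nt of the 3′ end from the stop codon for the 5 genes with a second site of at least 10% of reads, 1 bar per base. AT2G09990 shows groups of ends at 109 to 172 nt and 210 to 272 nt, and AT3G10610 shows 3 groups.

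Signal letters upstream of the most used 3′ end were rarer in the 54 genes than over all genes. AATAAA, searched on the strand of the mRNA 10 to 35 nt upstream of the last base, was found in 0 of 54 genes, beside 11.9% of all genes. AATAAA or a 1-base variant of it was found in 13 of 54 genes (24.1%), beside 47.5% of all genes. The other 40S genes gave 0 and 10 of 29. TGTA, the core of an upstream element known from animals and plants, was found in 3 of 54 genes (AT5G35530, AT1G48830 and AT2G32060), beside 12.3% of all genes. None of these counts says which factors act at an end, and they describe only the letters in that window.

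The last base before the tail was C in 28 of the 54 genes and T in 22, against 38.1% and 49.9% of all genes, and G in the other 4. It was A in 0 of 54 genes and in 0.151% of all genes, and the next base in the genome was A in 49 of 54 genes (90.7%) and in 90.5% of all genes. The authors removed the tail as a run of A in which a few G were allowed, so A of the genome at the end of a transcript, and G among them, went with it. The true end can therefore lie downstream of the base given here.

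Many of the 57 genes had near their starts the elements that plant ribosomal protein promoters are known for, the telo box AAACCCTA and the site II element TGGGCC or TGGGCT. Windows of 250 nt before to 50 nt after each annotated gene start were searched on both strands for these letters, and a window counted once however many matches it held, overlapping ones included. AAACCCTA was found in 30 of 57 genes (52.6%), beside 6.22% of 27444 coding genes. TGGGCC or TGGGCT was found in 39 of 57 genes (68.4%), beside 21.7% of coding genes. Both were found in 23 of 57 (40.4%), beside 2.20% of coding genes, and 11 of the 57 had neither. The match nearest to the start lay a median of 2 nt after it for AAACCCTA and 36 nt before it for TGGGCC in the 57 genes, and 47 and 66 nt before it over coding genes with a match.

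Of the 6 genes whose 3′ ends were shown first, 4 had AAACCCTA and 4 had TGGGCC, and RPS13A had none of these letters. The windows below show AAACCCTA (TAGGGTTT where it lies on the other strand) in capitals in these 4, on the strand of the gene, to show where it lies. It was within 9 nt of the start in 3 of them and far upstream in AT3G02080.
S18 RPS18C, 6 nt after the start, chr4:6173707-6173736, plus strand: aaatcattgaaAAACCCTAgcagacctctt
S2 AT2G41840, 2 nt after the start, chr2:17461519-17461548, minus strand: aaggcctttagAAACCCTAaaaatccttat
S9 AT5G15200, 9 nt before the start, chr5:4936420-4936449, minus strand: gagtgtagcgtTAGGGTTTtaagaaatcct
S19 AT3G02080, 210 nt before the start, chr3:365568-365597, minus strand: ctcaatctctcTAGGGTTTgattaaaaagc
The median was 834.5 reads over the 30 genes with AAACCCTA and 476 reads over the 27 without, and the ranges, 0 to 3345 and 9 to 3048 reads, overlapped. AT5G59240, with 0 reads, was among the 30.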

How the data were processed

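One poly(A)-seq library of Col was used, and the members and gene lists were chosen with earlier results of these data known. By the methods, the authors took first-end reads that held the 3′-adaptor, trimmed random bases, adaptor and tail, and aligned inserts of at least 18 nt with Bowtie2, naming TAIR10. The deposited alignments name a transcript, positions in it and the aligner's mapping quality score. Removal of duplicates is not stated for this assay. Reads were placed on TAIR10.1 through RefSeq exons, and 19281 reads of absent transcripts and 13598 past a transcript's end were left out, 0 of them from the 57 genes. A sense read counted for the gene it named. 3′ ends were measured along the coding transcript named by most reads, up to 300 nt past its end, in genes with at least 20 reads. Every member was named with its reads, except 1 that is not reported here by name but stays in all counts and medians, and 3′ ends were printed for leaders of the 6 families with the most reads and for families whose used lengths differed most. Sequences of the genome under aligned reads were searched with bwa 0.7.19. Those of paralogs were aligned with biopython 1.88 (match 2, mismatch -1, gap opening -5, extension -0.5). Placement was tested on simulated data. Python 3.11.15, numpy 2.4.6, scipy 1.17.1 and pandas 2.3.3 were used. Alternatives covered mapping quality, identical reads, gene by position, site width, read minimum, A-rich ends and motif window. A median counted as moved when it left the 95% order-statistic interval of the main one.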

Additional observations from a re-analysis of the deposited data

Results flagged for a closer look

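Reads listed antisense to the 57 genes were few, 163 in 9 genes, but 3 genes had more than the 3 reads that a count of 0 allows. RPS15A (AT1G07770) had 143 such reads, beside its 769 sense reads. They ended at 25 different bases within chr1:2407933-2408132 on the plus strand, with 42 of them at position 2407936, and 140 of the 143 passed a mapping quality of 10. This is opposite the long 3′ UTR of 1 isoform of RPS15A, a gene on the minus strand, and no annotated plus-strand gene lies there or ends within 300 nt upstream. AT5G04800 (S17) had 8 antisense reads, whose ends belong by position to the neighbouring gene AT5G04790. AT3G02560 (S7) had 5, whose ends belong by position to MEE31 (AT3G02570). What gave rise to the reads opposite RPS15A was not tested.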

How the results depend on the processing

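No paired analysis was possible because the values rest on a single library without groups. Of 120 alternative values, 82 stayed with the main value, 26 moved and 12 named another leading paralog. The share of all reads on the 57 genes was 2.08% from mapping quality 10 upwards, 1.83% with identical reads counted once and 1.85% by position. The median share of the leading paralog was 84.1% with that mapping quality. Main sites held a median of 90.8% with sites of 10 nt. The median width was 63.5 nt with identical reads counted once, beside 73 nt over all genes, and 19.5 nt between quartiles, beside 24 nt. TGTA was found in 5 of 54 genes in a window of 10 to 50 nt, beside 36.9% of all genes. The used 3′ UTR length stayed between 159 and 170 nt under every alternative tried, the minimum of 200 reads being chosen after seeing the data. From mapping quality 10 upwards, the genes that led held 0.402% of their family's reads in S4, 18.2% in S6, 0% in S7, 17.2% in S12, 26.01% in S16, 31.4% in S17 and 37.5% in S20. Some of these rest on few reads: 11 in S6, 29 in S12 and 8 in S20. Without another leader, the share was 98.9% of 556 reads in S10 and 100% of 643 in S24, and S5 kept 1 read. With identical reads counted once the leading genes held 29.7% in S4, 49.5% in S6, 44.4% in S15, 49.2% in S20 and 46.1% in S24. No leading gene changed by position or with sequences found once in the genome. Leaving out replicates was not possible with 1 library. Depth limits the 10 genes with under 100 reads, whose 3′ end shares have wide intervals.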

Other observations

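The most used 3′ end lay 154 nt after the stop codon in 6 of the 54 genes, a distance that 63 of 9278 genes (0.679%) shared. The 6 were AT3G04840 and AT4G34670 (S3a), AT2G17360 (S4), AT5G52650 (S10), AT2G09990 (S16) and AT2G05220 (S17), and they were noticed after their values were seen. A 3′ end before an A-rich stretch was found for 1.40% of the reads of the 57 genes and for 6.13% of all reads. At such an end the purification of tailed fragments or the removal of the tail could act on A of the genome.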
